A study of Mus musculus with 8 samples.

Results

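The 9 genes described here, Hmox1, Nqo1, Gclm, Gclc, Txnrd1, Srxn1, Slc7a11, Prdx1 and Sod2, encode defenses against oxidative stress. They were chosen by name from the 32285 genes of the deposited table and were followed in immune cells that had entered transplanted beta cells. The grafts were NIT-1 cells, a tumor-derived, insulin-producing line of the NOD mouse strain, either wild type (WT) or mutant for Renalase (Rnlsmut). Both kinds of graft grew under the skin of immunodeficient NOD hosts that all received autoreactive splenocytes from diabetic NOD mice, and grafts were taken 10 or 17 days after that transfer. The sources used here do not give the age of the hosts, or whether those of the sequenced grafts were NOD.scid or NSG mice. The paper's methods place WT and Rnlsmut cells on opposite flanks of the same hosts, but the labels do not tie the graft numbers to animals. Living CD45+ cells were sorted, each graft was marked with a hashtag antibody, and 4 grafts of 1 genotype at 1 day were pooled into 1 droplet library read from the 3′ ends of transcripts. Each of the 4 libraries thus held 1 condition, and condition and library cannot be told apart. The mutation is in the grafted cells, not in the cells that were sequenced, and Rnls itself was not analysed here.

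The table held 22441 cells from 16 grafts, with 1742746 to 9729233 unique molecular identifiers (UMIs) per graft and a median of 3520 per cell. The authors' 12 cell types were used, among them 7179 macrophages, 4876 CD4 T cells, 3449 CD8 T cells, 2345 monocytes, 1515 NK cells, 1104 dendritic cells (DC), 830 cells called Stem-Progenitor, 505 regulatory T cells (Treg), 369 granulocytes and 221 ILC-1. Although the labels name beta cells, the summed level of beta cell markers was at most 2.97 CPM (defined next) in any graft, and lineage markers were highest in the matching type except Fcgr1 (7 of 8 macrophage markers did), Ccr2 and Fn1 (4 of 6 for monocytes) and Il7r and Tmem176a (3 of 5 for ILC-1). All 3 cycling markers were highest in the Stem-Progenitor cells. A set of 42 cell barcodes occurred in more than 1 library, in 84 cells. CPM are the UMIs of a gene per 1000000 UMIs of the same cells, computed for each graft with at least 10 cells of the type. As shares of the cells' UMIs they may be compared between cell types and conditions, but not between genes.

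Most of these genes are textbook targets of NRF2, a transcription factor that is held down by KEAP1 and released when oxidants or electrophiles modify KEAP1. NRF2 pairs with small MAF proteins on the antioxidant response element, while BACH1 competes for the same element. In phagocytes, which make oxidants with their NADPH oxidase, the pathway limits damage to the cell itself, and several of its genes also respond to inflammatory signals. Sod2 in particular is a well-known target of NF-kB.

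A core of that element, TGACNNNGC, was looked for on both strands in the 250 bases before each RefSeq start (GRCm38.p6), because most of the 9 genes are textbook targets of NRF2. Promoters were at hand for 7 of the 9 genes, with 9 starts in all, but not for Hmox1 and Gclc. The core was found before 3 of these 9 starts, and before 10.16% of all 32851 promoters (3338). It lay 134 bases before the start of Gclm, 133 before that of Prdx1 and 92 before the second of 3 starts of Txnrd1. No match was found before the starts of Srxn1, Slc7a11, Nqo1 and Sod2 or the other 2 starts of Txnrd1. The 3 windows are shown on the plus strand, 5′ to 3′, with the core in capitals as its reverse complement (GCNNNGTCA). No annotated exon lies in them.
Gclm, chr3:122245408-122245446: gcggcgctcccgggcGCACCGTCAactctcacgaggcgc
Prdx1, chr4:116685451-116685489: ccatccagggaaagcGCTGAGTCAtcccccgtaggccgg
Txnrd1, chr10:82859099-82859137: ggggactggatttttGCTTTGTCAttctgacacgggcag
The Prdx1 match also spells TGAGTCA, the site of AP-1 proteins. A match is a description of these letters, not evidence of binding.

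Hmox1 (chromosome 8, 75093621 to 75100589, plus strand, in the GENCODE annotation of GRCm38) encodes heme oxygenase 1, which splits heme into biliverdin, iron and carbon monoxide. It was highest in macrophages, followed by monocytes and granulocytes. Its level was 555 ± 295 CPM in macrophages (SD, n = 16 grafts), 335 ± 216 in monocytes (n = 15) and 209 ± 224 in granulocytes (n = 12). Macrophages lay above monocytes in 13 of 15 grafts and monocytes above granulocytes in 8 of 12, so these neighbours did not separate cleanly. Over grafts with at least 20 granulocytes, their mean was 135 CPM. The next type, DC, was at 25.8 ± 23.3 CPM, CD8 T cells at 15.3 ± 6.23, CD4 T cells at 13.2 ± 5.34 and NK cells at 5.78 ± 6.90. Macrophages held 75.5% of all Hmox1 UMIs, against 38.6% of all UMIs. After each cell was thinned to 1000 UMIs, 27.3% of macrophages (95% exact binomial interval 26.3 to 28.4) and 1.50% of CD4 T cells (1.18 to 1.88) carried an Hmox1 UMI, while the unthinned share of macrophages was 57.8%. The median depth was 4719 UMIs in macrophages. In droplet data, free RNA of one cell type also adds UMIs to others. Over all grafts, Hmox1 was in CD4 T, CD8 T and NK cells at 3.02%, 3.06% and 1.74% of its macrophage level, beside 1.13% to 1.63% for the macrophage genes C1qa, C1qb, C1qc, Lyz2 and Apoe in these types. With so small a distance, Hmox1 in lymphocytes is not read as expression here.

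**Figure D1:**
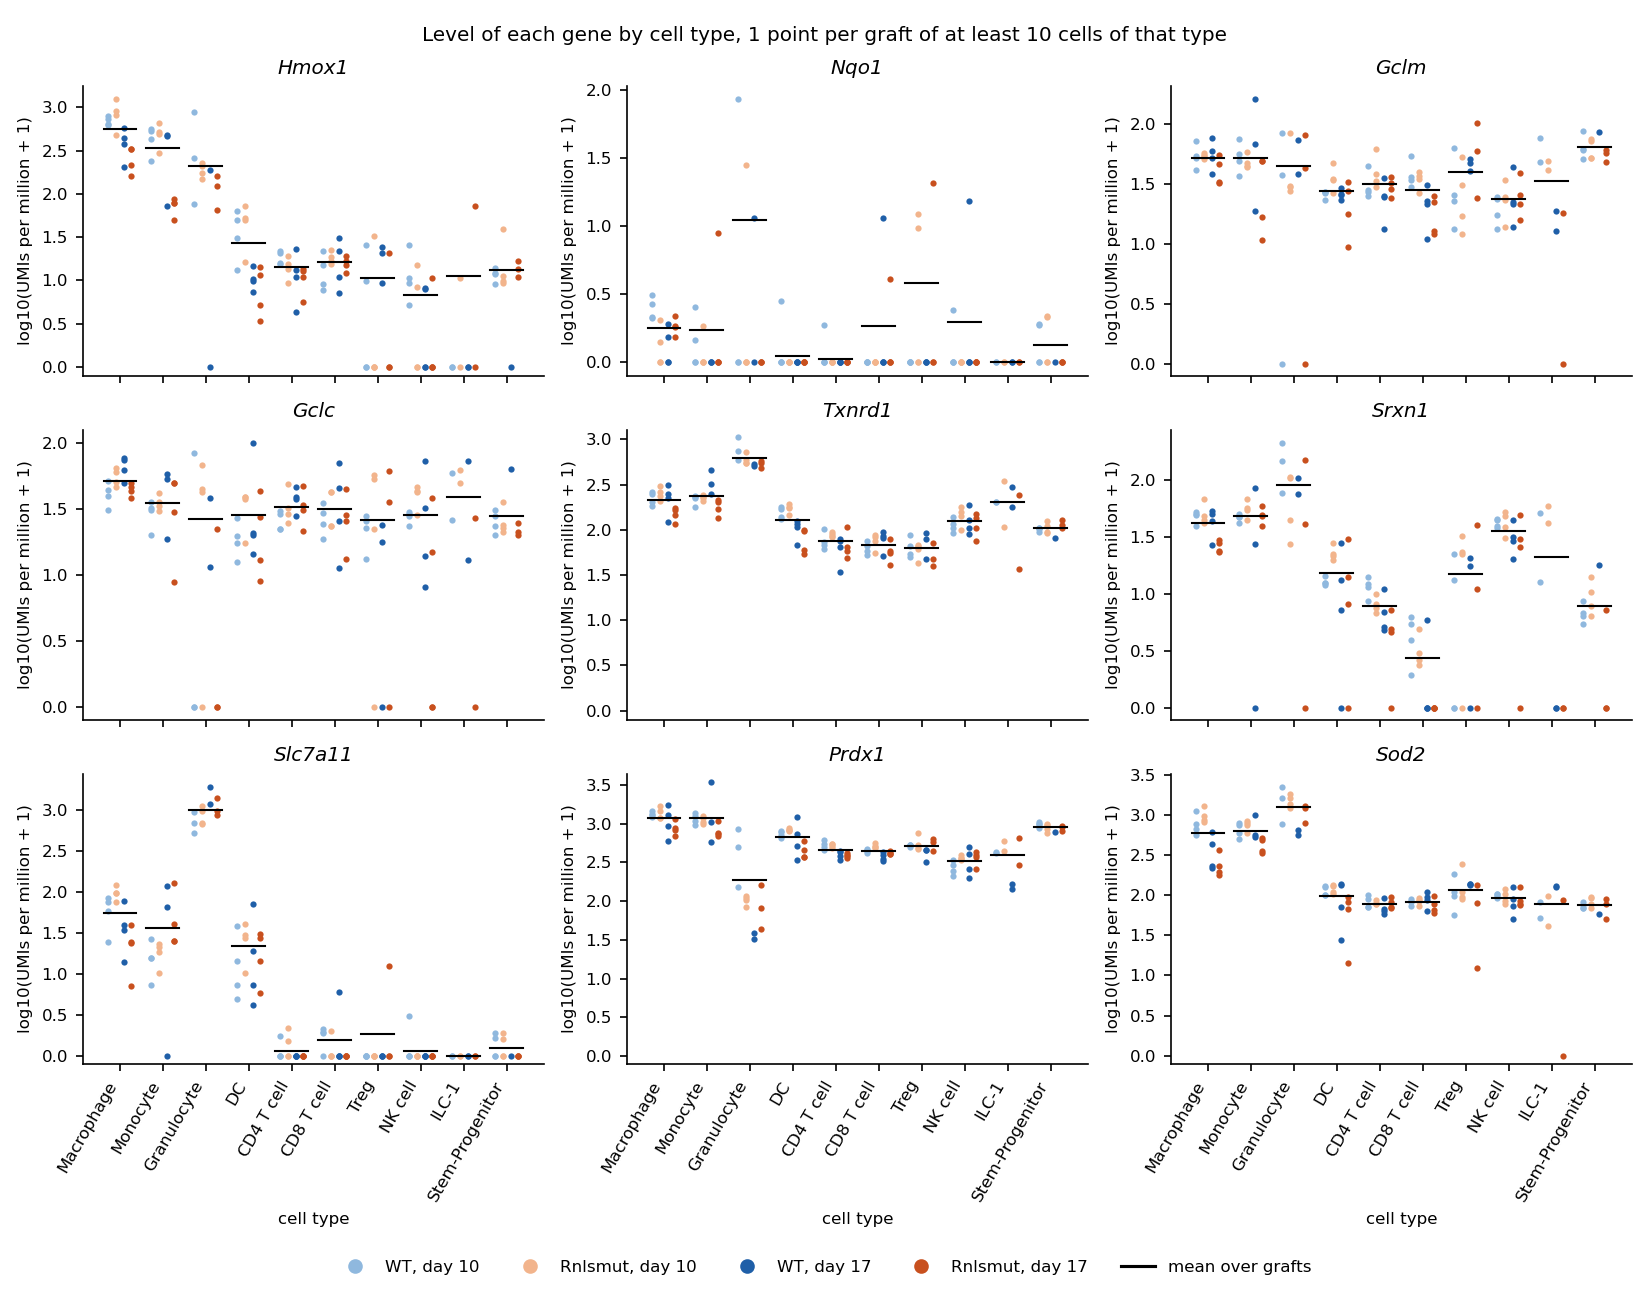
Level of the 9 genes in each cell type, a panel per gene, as log10(CPM + 1). Points are grafts with at least 10 cells of the type, coloured by genotype and day, and black lines are means over grafts. Slc7a11, Txnrd1 and Sod2 peak in granulocytes (985, 620 and 1266 CPM on average), Hmox1 in macrophages (555 CPM), and Gclm and Gclc are spread over all types.

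Granulocytes stood out for 3 genes in CPM, which are shares of the UMIs of a type. Their median depth was 1319 UMIs per cell, against 4719 in macrophages and 4530 in monocytes. Without thinning, Txnrd1 was found in 49.6% of granulocytes, 50.3% of macrophages and 56.1% of monocytes. For Sod2 these shares were 65.6%, 62.0% and 82.1%, and for Slc7a11 50.7%, 12.4% and 6.65%. Slc7a11 (chromosome 3, 49892526 to 50443614, minus strand) encodes the transporter that brings in cystine for glutathione synthesis. It was at 985 ± 370 CPM in granulocytes (n = 12), 54.5 ± 34.4 in macrophages (n = 16), 34.98 ± 38.5 in monocytes and 20.9 ± 17.8 in DC, and granulocytes exceeded macrophages in 12 of 12 grafts. Granulocytes held 21.0% of Slc7a11 UMIs with 0.559% of all UMIs. At 1000 UMIs per cell, 42.5% of granulocytes (37.4 to 47.8) but 3.91% of macrophages (3.48 to 4.39) carried Slc7a11. Lymphocytes were almost without it, with 4 UMIs in all CD4 T cells, 5 in CD8 T cells, 1 each in Treg and NK cells and 0 in ILC-1.

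Txnrd1 (chromosome 10, 82833951 to 82897712, plus strand) encodes thioredoxin reductase 1, which uses NADPH to recharge thioredoxin. It was at 620 ± 162 CPM in granulocytes and 235 ± 73.6 in monocytes, with granulocytes higher in 12 of 12 grafts. Monocytes, macrophages (213 ± 59.5) and ILC-1 (202 ± 99.3) did not separate beyond their spread, nor did DC (126 ± 44.4) and NK cells (125 ± 32.7). CD4 T cells (73.6 ± 19.6), CD8 T cells (67.6 ± 15.6) and Treg (61.6 ± 16.5) were lowest. Sod2 (chromosome 17, 13006846 to 13040063, plus strand) encodes the mitochondrial superoxide dismutase. Its level was 1266 ± 504 CPM in granulocytes, above that in monocytes in 11 of 12 grafts. Monocytes (631 ± 189) and macrophages (598 ± 356) were alike within their spread, and Treg followed at 115 ± 55.7 CPM, below macrophages in 14 of 14 grafts. The other 6 types lay between 74.7 and 97.5 CPM.

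Srxn1 (chromosome 2, 152105516 to 152111376, plus strand) encodes sulfiredoxin, which repairs overoxidized peroxiredoxins. It was at 90.2 ± 59.4 CPM in granulocytes, 47.4 ± 18.6 in monocytes, 41.2 ± 12.7 in macrophages and 34.8 ± 13.1 in NK cells, and each of these overlapped with its neighbour. NK cells thus held Srxn1 near the macrophage level, while CD4 T cells (6.84 ± 3.41) and CD8 T cells (1.74 ± 1.98) held little. Prdx1 (chromosome 4, 116685544 to 116700822, plus strand) encodes a peroxiredoxin that removes hydrogen peroxide with electrons from thioredoxin. It was at 1183 ± 332 CPM in macrophages, 1166 ± 676 in monocytes, 913 ± 94.4 in Stem-Progenitor cells and 680 ± 231 in DC, and lowest in granulocytes (189 ± 243). That mean was raised by WT grafts 1 and 4 of day 10 (849 and 504 CPM in 18 and 14 cells) and was 80.9 CPM over grafts with at least 20 granulocytes. The granulocytes' median depth was 1319 UMIs, and Prdx1 was found in 8.13% of them after thinning (5.55 to 11.4), against 51.6% of macrophages (50.4 to 52.7).

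Gclm and Gclc encode the modifier and catalytic subunits of glutamate-cysteine ligase, the first step of glutathione synthesis. Gclm (chromosome 3, 122245557 to 122270732, plus strand) was highest in Stem-Progenitor cells at 63.3 ± 13.5 CPM, above monocytes in 12 of 12 grafts, and ranged down to 22.8 ± 8.93 in NK cells. With UMIs pooled over grafts instead of averaged, granulocytes came first for Gclm. Gclc (chromosome 9, 77754535 to 77794485, plus strand) was at 51.1 ± 12.9 CPM in macrophages and between 25.1 and 38.0 in the other 9 types, which did not separate from their neighbours. Nqo1 (chromosome 8, 107388225 to 107403206, minus strand) encodes a quinone reductase and was barely detected. It had 60 UMIs in all cells, 33 of them in macrophages (0.767 ± 0.619 CPM), and passed the filter on low counts in no test.

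Over 37 profiles of a cell type in a group of grafts, some members ran in parallel. These correlations are descriptions over log2(CPM + 1), since profiles of a group share a library. Pearson's r was 0.89 for Slc7a11 and Sod2, 0.88 for Hmox1 and Sod2, 0.87 for Txnrd1 and Sod2 and 0.85 for Txnrd1 and Slc7a11. Prdx1 stood apart, with r of -0.029 against Sod2 and -0.20 against Txnrd1, and Gclm and Gclc had r of 0.30. Of 7925 genes compared, the profile most like that of Sod2 was Fth1 (ferritin heavy chain, r = 0.98), then Prdx5 (0.97) and Rab20 (0.96). Slc7a11 was most like Arhgap24 (0.97), Il1b (0.96) and Ptgs2os2 (0.96), and Txnrd1 most like Card19 (0.93), Tlr4 (0.92) and Ankrd33b (0.91). For Hmox1 these were 4930430E12Rik (0.95), Cstb (0.94) and Atp6v0c (0.94), for Srxn1 Tmbim4 (0.91), Fbxo30 (0.87) and Gab2 (0.85), and for Prdx1 Ap2s1 (0.93), Cox5a (0.92) and Lrrc59 (0.92). The nearest profiles were weaker for Gclc, where Plekhm2, Flcn and Zfand2a reached 0.71, 0.67 and 0.67, and for Gclm, where Fam111a, Pkm and Gsr reached 0.68, 0.67 and 0.66. For Nqo1 they were Gm7160 (0.79), Xpc (0.73) and Wwp2 (0.71), on a level too low to read.

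Macrophages held more of the calls between days than any other cell type. Of the 7 types they also had the largest share of all genes called in each genotype. Their rank is therefore not read as particular to these genes. From day 10 to day 17 in Rnlsmut grafts, 7 of the 8 members tested fell (Hmox1, Sod2, Slc7a11, Srxn1, Txnrd1, Prdx1 and Gclc) and none rose. Among all 9331 genes tested in that comparison, 42.0% were called and 21.4% were called lower, and the members' median log2 fold change was -0.97 against 0.015 over all genes. In WT grafts, Hmox1 and Sod2 fell and Gclc rose, 3 of 8, beside 25.1% of all genes called and 13.1% called lower. Their median there was -0.35, against 0.031 over all genes. UMIs were summed per graft and compared by edgeR's quasi-likelihood test in 1 fit of all 16 grafts, a gene counting as called at a Benjamini-Hochberg adjusted p below 0.05 over all genes tested.

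Hmox1 in macrophages was at 734, 647, 797 and 631 CPM in the WT grafts of day 10 and at 437, 578, 378 and 203 CPM in those of day 17. In Rnlsmut grafts it was at 909.9, 1234, 818 and 484 CPM on day 10 and at 160.0, 217, 329 and 329 CPM on day 17. Days did not overlap in either genotype, whereas genotypes overlapped at each day. The log2 fold change from day 10 to day 17 came to -0.997 (standard error 0.29, adjusted p = 0.0195) in WT and -1.87 (0.30, 0.000128) in Rnlsmut grafts. Without WT graft 4 of day 17 the WT change was -0.79 and missed the threshold (adjusted p = 0.0538). The thinned share of macrophages with Hmox1 was 38.1% and 46.0% at day 10 in WT and Rnlsmut grafts, and 26.3% and 17.9% at day 17.

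Sod2 in macrophages was at 785, 1126, 666 and 569 CPM in WT grafts at day 10 and at 439, 221, 610.0 and 232 CPM at day 17. In Rnlsmut grafts the levels were 1294, 827, 862 and 977 CPM at day 10 and 229, 178, 368 and 193 CPM at day 17. The days overlapped in WT grafts through 1 graft of each, and lay far apart in Rnlsmut grafts. Its log2 change from day 10 was -1.24 (standard error 0.30, adjusted p = 0.00616) in WT and -2.17 (0.31, 4.66e-05) in Rnlsmut grafts.

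For Slc7a11, macrophages of Rnlsmut grafts held 96.6, 73.4, 96.6 and 119 CPM at day 10 and 23.1, 22.9, 38.7 and 5.97 CPM at day 17, the last from 7 UMIs. Those of WT grafts held 74.2, 82.9, 56.6 and 23.3 CPM and then 76.0, 12.7, 38.2 and 32.7 CPM. It fell in Rnlsmut grafts without overlap (log2 fold change -2.12, standard error 0.42, adjusted p = 0.000677), while the days overlapped in WT grafts (-0.70, 0.41, 0.224).

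Srxn1 in macrophages of Rnlsmut grafts was at 47.1, 40.9, 44.2 and 66.8 CPM at day 10 and at 22.5, 28.8, 27.3 and 23.0 CPM at day 17. Its WT levels were 52.1, 48.4, 38.7 and 49.3 CPM at day 10 and 52.6, 42.8, 49.5 and 25.8 CPM at day 17. The days were apart in Rnlsmut grafts (log2 fold change -1.08, standard error 0.19, adjusted p = 0.000311) and overlapped in WT grafts (-0.30, 0.19, 0.251).

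Txnrd1 in macrophages of Rnlsmut grafts was at 235, 208, 258 and 304 CPM and then at 146, 172, 166 and 115 CPM, again without overlap (log2 fold change -0.86, standard error 0.21, adjusted p = 0.00335). In WT grafts it was at 246, 264, 201 and 183 CPM and then at 312, 248, 224 and 121 CPM, where the fit gave a log2 difference of -0.17 (0.21, 0.604) and, without TMM, of 0.016. The days of WT grafts overlapped.

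Prdx1 in macrophages of Rnlsmut grafts was at 1175, 1478, 1175 and 1699.9 CPM at day 10 and at 692, 887, 1137 and 826 CPM at day 17 (log2 fold change -0.77, standard error 0.23, adjusted p = 0.0123). WT grafts held 1201, 1436, 1308 and 1345 CPM at day 10 and spread from 597 to 1748 CPM at day 17 (929 and 1292 in the others), which gave -0.39 (0.23, 0.222). Without WT graft 3 of day 17, which had the highest Prdx1, the WT change was -0.67 with an adjusted p of 0.0270.

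The glutamate-cysteine ligase subunits had the smallest changes of the 8 in Rnlsmut grafts. Gclc was at 51.0, 39.0, 30.3 and 43.0 CPM in WT macrophages at day 10 and at 73.9, 76.3, 61.5 and 49.1 CPM at day 17, a rise of 0.48 on the log2 scale (standard error 0.17, adjusted p = 0.0439). In Rnlsmut grafts it went from 59.7, 45.6, 50.0 and 64.2 CPM to 42.5, 48.5, 45.2 and 37.5 CPM, a change of -0.46 (0.17, 0.0355). Both calls were near the threshold and the days overlapped. Without the filter on low counts both were lost (adjusted p = 0.0782 in WT and 0.0749 in Rnlsmut grafts), and the Rnlsmut call was also lost without TMM (-0.32, 0.137). The WT call was lost in 12 of 16 fits that left out 1 graft (0.35 to 0.61, adjusted p up to 0.141). It held without WT graft 1 of day 10, WT graft 4 of day 17 or Rnlsmut grafts 2 or 4 of day 10. The Rnlsmut call was lost in 5 such fits (without Rnlsmut graft 1 or 4 of day 10, or graft 1, 3 or 4 of day 17), with an adjusted p of up to 0.107. Gclm missed the threshold in Rnlsmut grafts (-0.55, standard error 0.22, adjusted p = 0.0507), where it went from between 50.0 and 56.7 CPM to between 31.1 and 54.9 CPM, and passed it in 5 of 16 fits without 1 graft (Rnlsmut 3 of day 17, WT 3 and 4 of both days). DESeq2 just called it there (-0.55, adjusted p = 0.04998). In WT grafts its difference was -0.10 (0.21, 0.774), with 40.9 to 71.9 CPM at day 10 and 37.8 to 75.7 CPM at day 17, and turned to 0.082 without TMM.

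**Figure D2:**
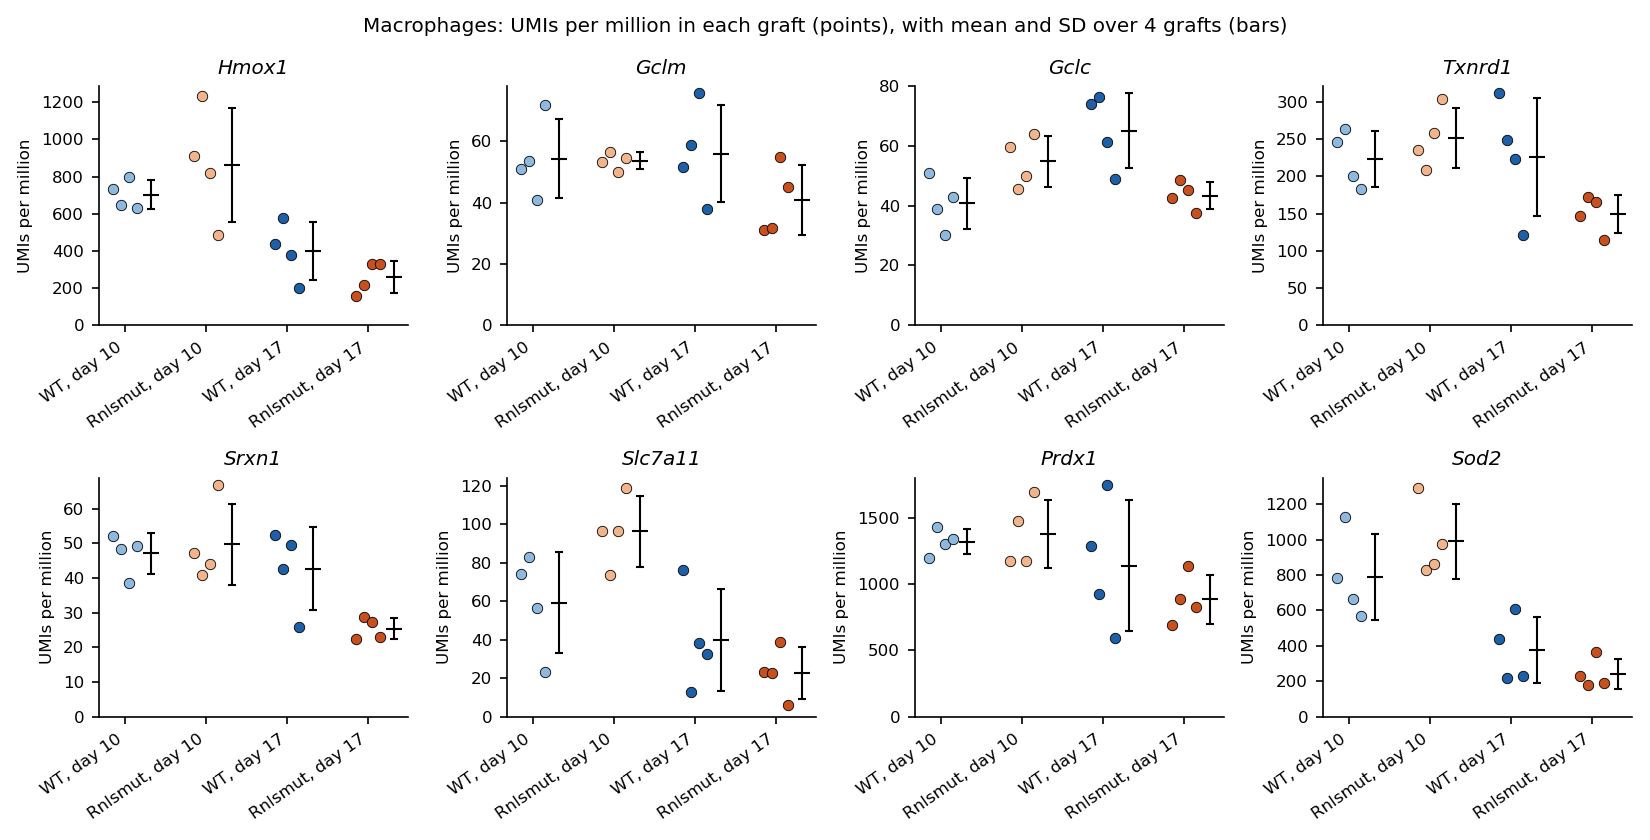
CPM of 8 genes in macrophages of each of the 16 grafts, by genotype and day. Points are grafts, and bars beside them are the mean and SD of 4. In Rnlsmut grafts Sod2 fell from between 827 and 1294 CPM to between 178 and 368 CPM.

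Macrophages were not the same population on both days. The authors' clusters 4 (led by Gm15056, Inhba, Cxcl9 and Slpi) and 13 (led by the heat shock genes Hspb1 and Hsph1 and the chemokines Ccl4 and Ccl7) prevailed at day 10. Cluster 4 made up 51.5% ± 13.8 of macrophages in WT and 67.9% ± 13.8 in Rnlsmut grafts at day 10 (SD, n = 4) and 7.31% ± 6.43 and 4.89% ± 2.60 at day 17. Cluster 13 went from 25.3% and 17.2% to 3.57% and 0.781%. In their place stood cluster 2 (led by Apoe, Ccl8, Cxcl13 and Selenop), at 28.6% in WT and 42.2% in Rnlsmut grafts of day 17, cluster 5 (led by Gm26917, Gm42418 and Xylt1) at 24.4% and 28.0%, and cluster 10 (led by Retnla, Fcrls and Ear2) at 26.5% and 15.7%. These clusters were built from the same cells' expression, so their shares are given as a description. The macrophages' median depth also differed, with 5285.5 to 6341 UMIs per cell over the grafts of day 10, 3276 to 3830.5 in Rnlsmut and 6771.5 to 8049 in WT grafts of day 17. The summed fibroblast markers in macrophages had medians of 10.2 and 3.96 CPM at day 10 in WT and Rnlsmut grafts and 15.4 and 20.8 CPM at day 17, and erythroid markers were at most 3.47 CPM. The part of depth and of these markers in the changes was not tested.

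**Figure D3:**
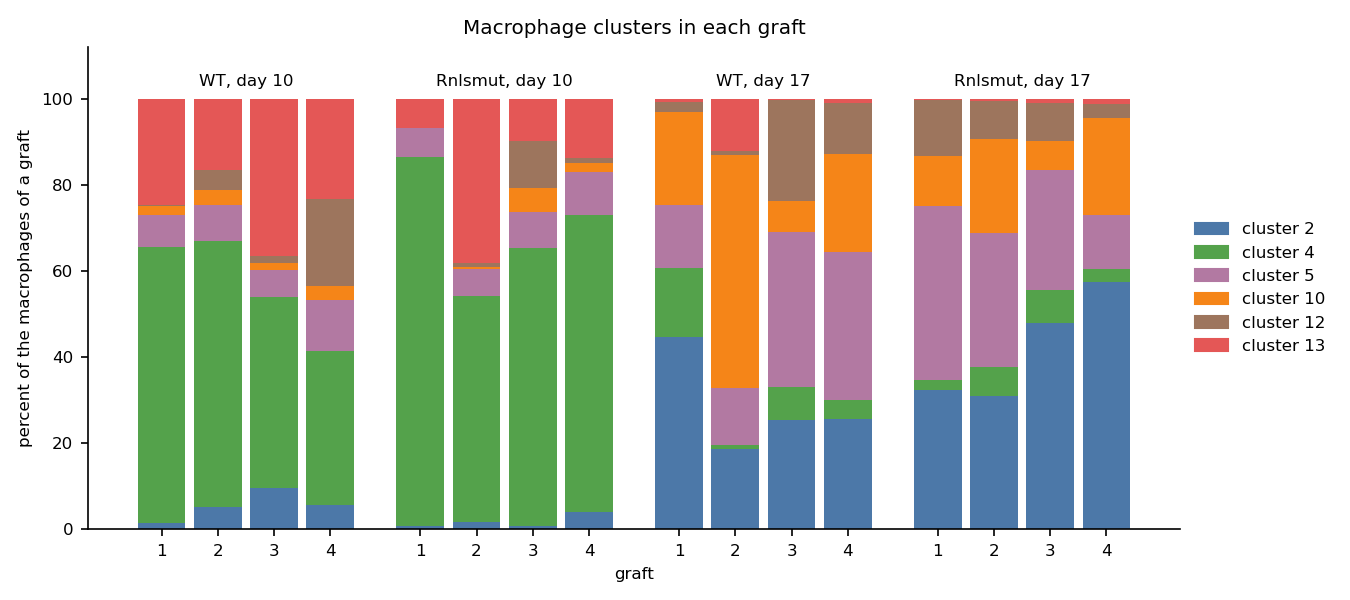
Macrophages of each graft by the authors' cluster, as stacked bars in percent, in 4 blocks of genotype and day. Cluster 4 averages 51.5% and 67.9% of macrophages in WT and Rnlsmut grafts at day 10 and 7.31% and 4.89% at day 17.

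The members differed in which of these clusters held them. Slc7a11 was highest in cluster 4, with 107 to 186 pooled CPM over the 4 groups, and was all but missing from cluster 13 (6 UMIs in 551 cells). Sod2 had its highest levels in cluster 4 as well, from 732 to 1326 CPM. At day 10 Hmox1 was highest in cluster 13, at 1319 CPM in WT and 1509 in Rnlsmut grafts. At day 17 cluster 13 was at 327 and 274 CPM, in 20 and 22 cells, and cluster 2 came first with 480.0 and 313 CPM. Prdx1 in cluster 4 was at 1557 and 1413 CPM at day 10 in WT and Rnlsmut grafts, and at 3098 and 3271 CPM at day 17.

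**Figure D4:**
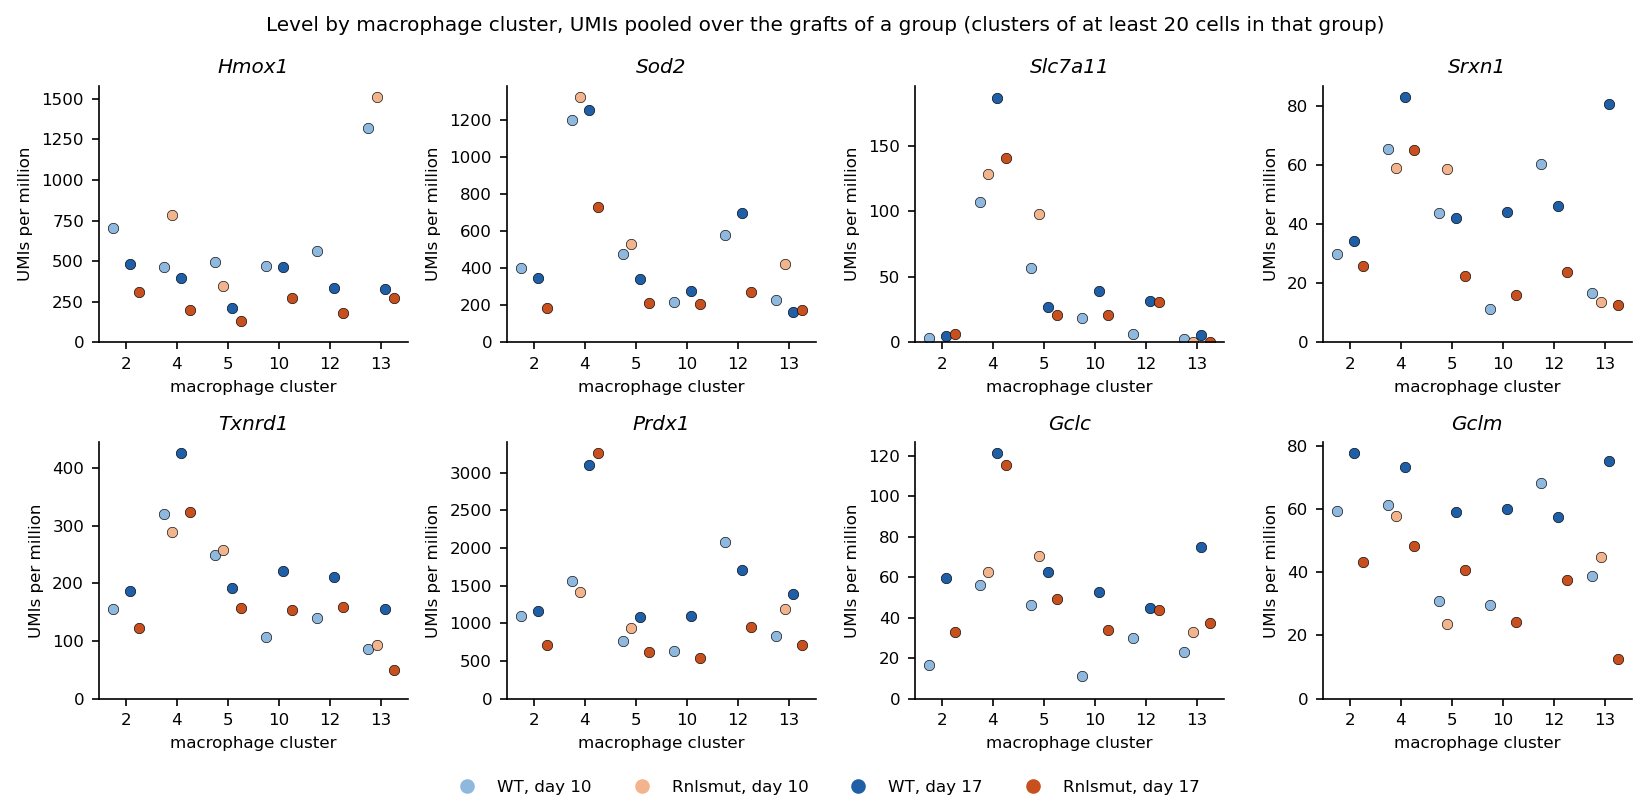
CPM of 8 genes in 6 macrophage clusters, with UMIs pooled over the grafts of a genotype and day, for clusters of at least 20 cells in that group. Slc7a11 and Sod2 are highest in cluster 4. Hmox1 is highest in cluster 13 at day 10 (1319 and 1509 CPM) and in cluster 2 at day 17 (480.0 and 313 CPM in WT and Rnlsmut grafts).

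Within cluster 4 alone the picture was another. In 13 grafts with at least 10 such cells, Hmox1 fell in Rnlsmut grafts (log2 fold change -2.01, standard error 0.30, adjusted p = 0.000572 by edgeR's quasi-likelihood test), while Prdx1 (0.97, 0.22, 0.0106) and Gclc (0.87, 0.22, 0.0202) rose. That made 3 of 8 members called, beside 8.95% of all genes, over 4 grafts of day 10 and 3 of day 17. Slc7a11 (0.048), Srxn1 (0.061) and Txnrd1 (0.014) lay near 0 there, with standard errors of 0.28, 0.24 and 0.19, and Sod2 at -0.77 missed the threshold (0.25, 0.0617). In WT grafts 2 of 8 members passed the threshold, beside 3.92% of all genes, with Prdx1 at 0.93 (0.25, 0.0436) and Gclc at 1.13 (0.22, 0.00973), and Hmox1 was at -0.16 (0.31, 0.830). The cell minimum left few grafts, and these WT values set 4 grafts of day 10 against 2 of day 17, the others of day 17 having 1 and 9 such cells, which is below the minimum of 3 grafts used elsewhere. Cluster 5 was deep enough for 4 members in 16 grafts. Hmox1 fell in it in WT (-1.63, standard error 0.34, adjusted p = 0.00481) and Rnlsmut grafts (-1.34, 0.36, 0.0148) and Sod2 in Rnlsmut grafts (-1.18, 0.38, 0.0454), 1 of 4 members called in WT and 2 of 4 in Rnlsmut grafts, beside 3.45% and 11.3% of all genes. These 2 clusters were singled out after the values had been seen.

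**Figure D5:**
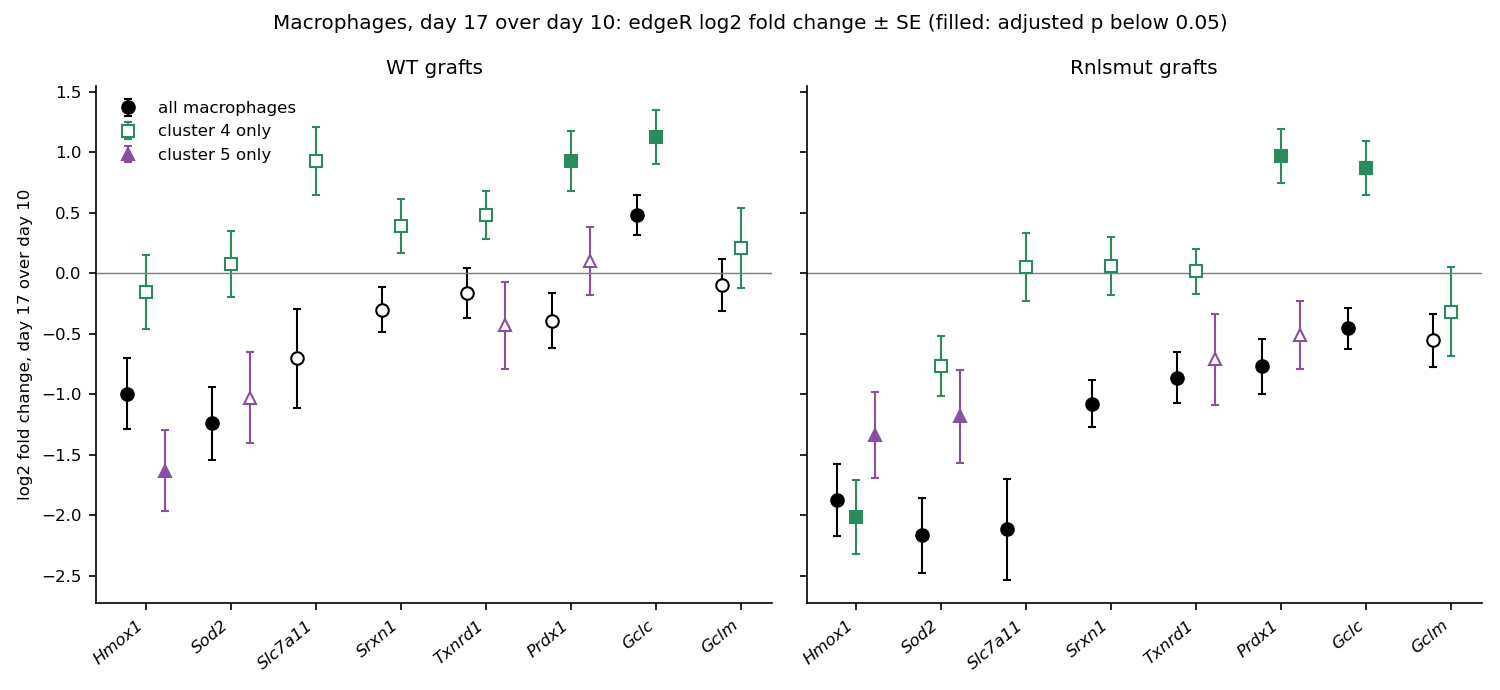
Log2 fold change from day 10 to day 17 for 8 genes in WT (left) and Rnlsmut grafts (right), with standard errors derived from edgeR's F statistic, over all macrophages (circles), cluster 4 (squares) and cluster 5 (triangles). Filled symbols passed an adjusted p of 0.05. Over all macrophages the 8 values lie below 0 in Rnlsmut grafts (-0.46 to -2.17), while within cluster 4 Prdx1 (0.97) and Gclc (0.87) lie above it.

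In monocytes of Rnlsmut grafts Hmox1 and Sod2 fell as well, on few cells at day 17. Of 8 members tested 2 were called, beside 3.19% of all genes. Hmox1 in monocytes of Rnlsmut grafts was at 657, 494, 515 and 292 CPM at day 10 and at 86.9, 77.8, 78.1 and 48.7 CPM at day 17, the latter from 11, 8, 8 and 2 UMIs. The days lay far apart, with a log2 fold change of -2.82 (standard error 0.45, adjusted p = 0.00129, 15 grafts). Sod2 in the same cells went from 845, 790.5, 606 and 748 CPM to 522, 340.3, 351 and 487 CPM (-0.997, 0.24, 0.0266), a call that was lost without any 1 of Rnlsmut grafts 1, 2 or 4 of day 10 or 2, 3 or 4 of day 17 (adjusted p up to 0.121). It was lost as well without TMM (adjusted p = 0.0508) and with a minimum of 1 or 20 cells (0.112 and 0.0563). In WT grafts Hmox1 was at 428, 562, 238 and 531 CPM at day 10 and at 481, 467 and 71.5 CPM in the 3 grafts of day 17 with enough monocytes. Graft 2 of that group had under 10 monocytes and was left out of this fit.

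The single monocyte call in WT grafts was a rise of Slc7a11, 1 of 8 members beside 3.84% of all genes. It was at 25.5, 14.6, 6.35 and 14.3 CPM at day 10 and at 118, 64.4 and 0 CPM at day 17 (49, 16 and 0 UMIs), a log2 fold change of 2.34 (standard error 0.47, adjusted p = 0.0129). This rested on WT graft 1, without which the value was 1.62 and the adjusted p 0.339.

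In DC of Rnlsmut grafts 3 of 7 members fell, beside 14.6% of all genes, and in WT grafts 0 of 7 were called (10.2% of all genes). In WT grafts 2 of the 7 had an unadjusted p below 0.05, a threshold at which the share of all genes is not given here. Txnrd1 in DC of Rnlsmut grafts went from 190.0, 179.7, 145 and 174 CPM to 95.5, 59.0, 97.6 and 53.0 CPM, with no overlap (log2 fold change -1.04, standard error 0.23, adjusted p = 0.00507). Hmox1 went from 49.4, 52.0, 72.4 and 15.2 CPM to 2.39, 4.21, 10.6 and 13.3 CPM, where the day 17 values stand for 1, 1, 4 and 1 UMIs (-2.83, 0.71, 0.0123). Without Rnlsmut graft 1 of day 17 its adjusted p was 0.0718. Over all grafts Hmox1 was at 32.4 CPM in DC and at 481 CPM in macrophages. The part of free macrophage RNA in these few DC UMIs was not tested. Prdx1 in these DC went from 882, 828, 829.7 and 802 CPM to 375, 367, 604 and 451 CPM (-0.87, 0.28, 0.0398). That call was lost in 10 of 16 fits without 1 graft (adjusted p up to 0.131) and held without WT graft 1 or 3 of day 10, WT graft 1, 2 or 3 of day 17 or Rnlsmut graft 3 of day 17. With a minimum of 20 cells it was lost too (adjusted p = 0.0914). The Prdx1 levels of both days nevertheless did not overlap. The mix of the authors' DC clusters also differed. In Rnlsmut grafts of day 10, clusters 17, 19, 21 and 25 held 127, 60, 109 and 27 DC. At day 17 they held 22, 99, 19 and 28. Pooled over grafts, Txnrd1 went from 216 to 175 CPM in cluster 17 and from 96.4 to 70.9 CPM in cluster 19. Cluster 21 was at 203 CPM at day 10, and cluster 25 went from 73.4 to 51.4 CPM. Hmox1 was at 79.6, 19.0, 7.40 and 139 CPM in clusters 17, 19, 21 and 25 of Rnlsmut grafts at day 10. The part of the clusters in the DC changes was not tested.

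The counts of members called in T cells, given with the shares of all genes, are not read as a result about these genes. Prdx1 was the only member called in both genotypes, in CD4 and in CD8 T cells. In CD4 T cells it was at 621, 502, 546 and 462 CPM in WT grafts of day 10 and at 432, 338, 436 and 378 CPM in those of day 17 (log2 fold change -0.57, standard error 0.11, adjusted p = 0.000857). In Rnlsmut grafts it went from 515, 489, 543 and 546 CPM to 359, 389.6, 386 and 423 CPM (-0.52, 0.11, 0.00176). The days did not overlap in either genotype. This was 1 of 6 members tested in WT (20.7% of all genes called) and, with Txnrd1, 2 of 6 in Rnlsmut grafts (22.5%). Txnrd1 went from 82.5, 88.8, 94.7 and 85.2 CPM to 63.4, 58.0, 48.04 and 107 CPM in Rnlsmut grafts (-0.55, 0.20, 0.0486), and its call was lost in 9 of 16 fits without 1 graft (adjusted p up to 0.162). It held without Rnlsmut graft 1 of day 10 or 4 of day 17, WT graft 1 of day 10 or any WT graft of day 17. DESeq2 and the fit without TMM did not call it (adjusted p = 0.0665 and 0.104). CD8 T cells gave 1 of 6 members in each genotype, beside 11.7% of all genes in WT and 10.5% in Rnlsmut grafts. Prdx1 there went from 469.7, 422, 458 and 438 CPM to 393, 345, 423 and 329.6 CPM in WT (-0.41, 0.12, 0.0190) and from 555, 478, 519 and 501 CPM to 403, 437, 403 and 421 CPM in Rnlsmut grafts (-0.38, 0.11, 0.0232). Scaled by total UMIs in place of TMM, the CD8 calls were lost (-0.25 and -0.30, adjusted p = 0.158 and 0.0774). They were also lost without WT graft 2 (WT) or Rnlsmut graft 1 or 3 (Rnlsmut) of day 17, with an adjusted p of up to 0.0759. Of the 6 members, 2 in WT and 3 in Rnlsmut grafts had an unadjusted p below 0.05 in CD8 T cells. The share of all genes at that threshold is not given here, so these counts are not read as a result either. The lowest log2 fold changes in CD8 T cells were -1.09 and -0.92. Gclm in CD8 T cells of Rnlsmut grafts was not called, though its days did not overlap. It went from 39.4, 25.4, 35.7 and 33.7 CPM to 24.4, 21.3, 11.8 and 11.1 CPM, the latter from 8, 6, 3 and 1 UMIs. In NK cells, 0 of 3 members tested were called in WT (9.07% of all genes) and in Rnlsmut grafts (2.67%), and in Treg 0 of 2 (8.54% and 7.25%). No member of these types had an unadjusted p below 0.05.

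With all CD45+ cells of each graft taken as 1 sum, where a change in a cell type's number and in its RNA cannot be told apart, 1 of 8 members was called per genotype. Gclc rose in WT grafts, from 33.1, 29.5, 24.6 and 30.2 CPM to 50.5, 64.4, 54.3 and 44.0 CPM without overlap (log2 fold change 0.76, standard error 0.13, adjusted p = 0.000340 by edgeR's quasi-likelihood test, 37.9% of all genes called). In Rnlsmut grafts Gclc was at 30.0 to 42.2 CPM at day 10 and 36.1 to 41.1 CPM at day 17. Sod2 fell in Rnlsmut grafts from 562, 443, 273 and 335 CPM to 189, 152, 285 and 180.2 CPM (-1.02, 0.33, 0.0183, 46.7% of all genes called). Its call was lost without Rnlsmut graft 1 of day 10 or 2 of day 17 (adjusted p up to 0.0585).

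Between genotypes no member was called. Over 7 cell types there were 40 pairs of a member and a type that passed the filter. At day 10, 0 of 40 were called by edgeR's quasi-likelihood test or by DESeq2, beside 0.109% of all genes over these types. In edgeR 1 of the 40 had an unadjusted p below 0.05 and the lowest adjusted p was 0.677. In macrophages the 8 log2 differences of Rnlsmut over WT at day 10 ran from -0.034 to 0.64 with a median of 0.20. At day 17, 0 of 40 were called by either tool, beside 0.154% of all genes, and 10 of the 40 had an unadjusted p below 0.05 in edgeR (lowest adjusted p 0.637). These shares of all genes are for the adjusted threshold. Shares at an unadjusted p below 0.05 are not given here, so no count at the unadjusted threshold is read as a result.

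The 8 macrophage differences at day 17 were all below 0, from -0.34 for Prdx1 to -0.77 for Slc7a11, with a median of -0.58 against -0.012 over all genes. Gclc was at 37.5 to 48.5 CPM in Rnlsmut and at 49.1 to 76.3 CPM in WT grafts, ranges that did not overlap but nearly touched. How many of all genes were as far apart is not given here. The log2 difference of Gclc was -0.54, with an interval of 2 standard errors from -0.87 to -0.22. That of Srxn1 (-0.74) ran from -1.12 to -0.36, that of Sod2 (-0.62) from -1.22 to -0.03 and that of Hmox1 (-0.60) from -1.19 to -0.01. For Prdx1 it ran from -0.80 to 0.11. Misses of the threshold thus leave room for differences of over 1 on the log2 scale. In monocytes of day 17 the 8 log2 differences of the main edgeR fit ran from -2.35 to 0.056, with a median of -0.92. The lowest unadjusted p there was 8.48e-05 and the lowest adjusted p 0.645. Without the filter on low counts, edgeR called Hmox1 (-2.46, adjusted p = 2.05e-10), Prdx1 (-1.25, 6.67e-05) and Gclm (-1.98, 0.0365) lower in these monocytes of Rnlsmut grafts. Without WT graft 4 of day 17 it called Hmox1 alone (-2.71, adjusted p = 0.0116).

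The difference of the day changes, Rnlsmut minus WT, was also without a call, 0 of 40 beside 0.317% of all genes at the adjusted threshold. Of the 40, 14 had an unadjusted p below 0.05, and the lowest adjusted p was 0.225. The share of all genes at the unadjusted threshold is not given here, so the count of 14 is not read as a result. In macrophages all 8 values were below 0, from -0.38 (Prdx1) to -1.41 (Slc7a11). The larger number of calls in Rnlsmut than in WT grafts, 15 against 6 of 40, is therefore not shown to be a difference between genotypes. Over the 7 types, the share of all genes called between days ran from 2.67% to 42.0% in Rnlsmut and from 3.84% to 25.1% in WT grafts. DESeq2 called this difference for Gclc in macrophages (-0.93, adjusted p = 0.0474) and Hmox1 in monocytes (-2.37, 0.0486). The day changes of the genotypes and the genotype differences of the days rest on the same 16 grafts and are not independent of each other.

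Beyond the 9 members, lists of 54 other genes of redox defense held 49 genes that were tested in macrophages. From day 10 to day 17, 19 fell and 8 rose in Rnlsmut grafts, and 11 fell and 5 rose in WT grafts, beside 42.0% of all genes called and 21.4% called lower in Rnlsmut and 25.1% and 13.1% in WT grafts. Nothing particular to a list is read from the counts below. Thioredoxin and peroxiredoxin genes had 7 of 11 lower and 0 higher in Rnlsmut and 3 of 11 lower in WT grafts. Among them, Prdx6 was at -1.93 in Rnlsmut and -0.95 in WT grafts on the log2 scale, Txn1 (thioredoxin, the substrate of Txnrd1) at -1.28 and -0.87, and Prdx5 at -1.44 and -1.12, all called. Of 10 glutathione genes, 3 fell and 2 rose in Rnlsmut grafts, where Gsr (glutathione reductase) was at -1.13 and Slc3a2, the partner chain of the Slc7a11 transporter, at -0.84. In WT grafts 2 fell and 1 rose, with Slc3a2 at -0.45 and Gstm1, a glutathione transferase, at 1.13.

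Heme and iron genes gave 3 lower and 1 higher of 7 in Rnlsmut and 1 and 1 in WT grafts. Fth1, which stores the iron that heme oxygenase frees, fell by 1.43 and 0.98 on the log2 scale in Rnlsmut and WT grafts, and Blvrb, a biliverdin reductase, by 0.64 in Rnlsmut grafts. Of the NADPH supply, 2 of 5 fell and 1 rose in Rnlsmut and 1 and 1 in WT grafts, with Taldo1 (transaldolase) at -1.04 and -0.65 and Idh1 (isocitrate dehydrogenase) at 1.21 and 0.69. Catalase (Cat) rose in both, by 0.58 in Rnlsmut and 0.55 in WT grafts, and Sod1, the cytosolic superoxide dismutase, rose in Rnlsmut grafts (0.40), 2 of the 2 superoxide and peroxide genes tested there and 1 of 2 in WT grafts. In Rnlsmut grafts both thus moved opposite to Sod2.

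Of 8 regulators and partners of NRF2, 2 fell and 2 rose in Rnlsmut and 2 fell and 1 rose in WT grafts. Nfe2l2, which encodes NRF2, fell in WT grafts (-0.56, adjusted p = 0.00427) and was at -0.12 in Rnlsmut grafts (adjusted p = 0.458 by edgeR's quasi-likelihood test). Maff, a small MAF partner, was lower in both (-1.15 in Rnlsmut and -0.67 in WT grafts), Sqstm1, which binds KEAP1, was lower in Rnlsmut grafts (-0.84) and Bach1, the competitor, higher there (0.45). Cyba and Ncf4 of the phagocyte oxidase fell in both genotypes, 2 of 6 each. Between genotypes, 0 of the listed genes were called at day 10 or day 17 in any of the 7 types.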

How the data were processed

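Single-cell RNA sequencing (10x Genomics 3′ kit v3.1 with hashtag antibodies) was done on CD45+ cells of 16 grafts. UMI counts of every gene in every cell were deposited by the authors without normalization, beside a table of each cell's graft, cluster and type. The submitters' processing notes name Cell Ranger and the build mm10, while versions, hashtag calling and cell filters are not given in the sources used here. The lowest total was 1001 UMIs per cell and the highest mitochondrial share 9.74%. No doublet caller was run. As an alternative, the 6% of cells with the most UMIs in each library (1348 cells) were left out.

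UMIs were summed per graft and cell type, the graft being the replicate, with at least 10 cells per graft and 3 such grafts per group, which left 7 cell types. The sums were fitted in R 4.3.3 by the quasi-likelihood method of edgeR 4.0.16 (with limma 3.58.1), scaled by TMM and filtered by filterByExpr, over the 4 groups of genotype and day, with Benjamini-Hochberg adjustment over all genes of a cell type, and the code was tested on simulated data. All adjusted p-values come from this fit unless DESeq2 1.42.0, an alternative, is named. The standard errors were derived as the absolute log2 fold change divided by the square root of the F statistic of the quasi-likelihood test. The study describes WT and Rnlsmut grafts as paired within hosts, but the sources used here do not say which hashtag numbers share a host, so the fit was not paired and p-values measure the spread between grafts. Levels across cell types were described without a test. Shares of cells were taken after thinning each cell to 1000 UMIs, with 95% exact (Clopper-Pearson) intervals that cover counting error only. Python 3.11.15, NumPy 2.4.6, pandas 2.3.3 and SciPy 1.17.1 were used.

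The genes, lists and tests were chosen with earlier results of these data known. Genes named beyond the 9 members are, for each member, the 3 with the most similar profile (genes of a mean of at least 10 CPM, profiles of at least 50 cells), and at most 3 called genes per list with the smallest adjusted p. Leading genes of clusters and marker genes are named to identify cells. Other alternatives were total UMIs as the only scaling, no filter on low counts, a minimum of 1 or 20 cells, each day fitted alone, hashtag numbers as a block, each graft left out in turn, and macrophage clusters 4 and 5 alone, the last chosen after the data were seen. The hashtag libraries were not analysed here.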

Additional observations from a re-analysis of the deposited data

Results flagged for a closer look

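Slc7a11 in monocytes of Rnlsmut graft 2 of day 17 was at 126 CPM, while the other 3 grafts of that group lay between 23.7 and 39.0 CPM. The gap to the nearest graft was 0.851 of the group's range, above Dixon's 95% critical value for 4 samples. The value stands for 13 UMIs. It was the only 1 of 73 groups of 4 grafts to stand out in this way, and chance alone gives about 1 in 20.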

How the results depend on the processing

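Of 40 pairs of a member and a cell type, 6 were called between days in WT and 15 in Rnlsmut grafts. Over the 7 types, the share of all genes called ran from 3.84% to 25.1% in WT and from 2.67% to 42.0% in Rnlsmut grafts. Neither count of members is read as a result about these genes. These counts were 8 and 15 with DESeq2, 7 and 11 without TMM, 8 and 16 without the filter on low counts, 6 and 14 with a minimum of 1 cell, 6 and 13 with 20 cells, and 4 to 8 and 10 to 17 with each graft left out. Of called values, 318 kept and 50 lost their call in fits without 1 graft, and 125 kept and 13 lost it under the other alternatives apart from the clusters. Calls for the genotype at day 17 went from 0 to 3 without the filter, and from 0 to 1 over fits without 1 graft (1 without WT graft 4 of day 17). Calls for the difference of day changes went from 0 to 2 with DESeq2 and to 1 without the filter, and in all CD45+ cells the genotype contrasts went from 0 to 1 with DESeq2. The 2 day calls in all CD45+ cells ranged from 1 (without Rnlsmut graft 1 of day 10 or 2 of day 17) to 5 (without WT graft 3 of day 17). The share of macrophages with Hmox1 was 57.8% when not thinned. The cause of these shifts was not tested.

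In macrophages, the WT changes of Gclm and Txnrd1 turned to 0.082 and 0.016 without TMM, and over fits without 1 graft ranged from -0.31 to 0.053 and from -0.35 to 0.025. Within cluster 4 the WT values above 0 were 0.21 for Gclm, 0.48 for Txnrd1, 0.39 for Srxn1, 0.93 for Slc7a11, 0.93 for Prdx1 and 0.076 for Sod2, which were below 0 over all macrophages, beside 1.13 for Gclc, which was not, and within cluster 5 0.10 for Prdx1. Within cluster 4 the Rnlsmut values above 0 were 0.87 for Gclc, 0.014 for Txnrd1, 0.061 for Srxn1, 0.048 for Slc7a11 and 0.97 for Prdx1. The difference of day changes turned to 0.29 for Hmox1 in cluster 5 and to 0.042 for Prdx1 in cluster 4. Calls over all macrophages were 3 of 8 members in WT and 7 of 8 in Rnlsmut grafts, beside 25.1% and 42.0% of all genes. In cluster 4 they were 2 of 8 (Prdx1 and Gclc, both rises) and 3 of 8, beside 3.92% and 8.95%. Of the latter 3, Prdx1 and Gclc rose, against their falls over all macrophages. In cluster 5 they were 1 of 4 and 2 of 4, beside 3.45% and 11.3%. Each cluster had fewer cells.

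Whether hashtag numbers pair the grafts could not be shown. Of 61 correlations of same-numbered grafts' deviations, which repeat 8 pairs of number and day over cell types, 16 were above 0.1 (-0.242 to 0.376). Number 1 of day 10 was above 0.1 in all 8 sets of cells (0.105 to 0.376), while no other number was. With the number as a block, 0 members were called for the genotype at either day or for the difference of day changes. Day contrasts cannot be had with that block.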
